A study of Mus musculus with 8 samples.

Results

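Conditional loss of Ezh2 was examined in the stroma, the connective tissue under the lining epithelium, of mouse uteri by Visium spatial transcriptomics, which counts transcripts as unique molecular identifiers (UMIs) in small barcoded areas called spots. The genes described are all those of the deposited comparison of knockout with wild-type stroma spots, 1191 of the 5828 genes found in any of the 4 deposited comparisons. The wild-type (WT) group comprised 4 uteri of the genotype EZ fl/fl and the knockout (KO, Ezh2cKO) group 4 uteri of the genotype EZ fl/fl; Prcre/+, all on a mixed C57BL/6 and 129SvEv background. The groups therefore share the floxed Ezh2 alleles. The Cre, driven by the progesterone receptor gene, is carried by the KO group alone. Effects of the Prcre allele, Cre itself included, and of the loss of Ezh2 thus cannot be told apart. Cre of this kind acts in cells that express or have expressed that receptor, which in the uterus include epithelium, stroma and muscle. Each of 4 litters gave 1 female of each genotype, ovariectomy was at postnatal day 71 ± 4, and uteri were taken at postnatal day 112 ± 11 and cut at 10 µm.

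EZH2 is the enzyme of Polycomb repressive complex 2. The complex methylates lysine 27 of histone H3 and so keeps developmental and lineage genes silent. In mammals the complex is found mostly at promoters dense in CG dinucleotides. In the uterus, stromal cells carry the receptors through which estrogen and progesterone act, secrete matrix and growth factors that instruct the epithelium, and turn into decidual cells in pregnancy. Removal of the ovaries takes away the main source of both hormones.

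The deposited tables give 1 pooled average per gene and genotype, here called the level and equal to pooled UMIs divided by the summed size factor of the pool. No value per animal was analysed, so the spread between animals cannot be shown and the 4 uteri of a genotype give no replicate check on any fold. Each fold below is a ratio of levels with an exact Clopper-Pearson 95% interval that covers counting error alone. A gene is called where the adjusted p-value in the authors' deposited table is under 0.05. The KO pool was 2.01 times as deep, with 781108 UMIs over the 1191 genes against 380990 in WT. The median gene had 241 UMIs in KO and 124 in WT. Genes are in the table only where 1 genotype's level exceeds 1, which was so in both genotypes for 855 genes, in KO only for 140 and in WT only for 196. A gene listed through 1 genotype alone had to have the higher level in that genotype. Counts and medians over gene groups are therefore descriptions of the listed members. The Ezh2 transcript was not analysed here, and no value of it can serve as a check of the genotype labels.

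The stroma label was checked against marker genes. Of 31 endometrial stroma markers, 24 were listed in enough of the deposited comparisons to give a value in all 4 pools. Their summed level in the stroma pool was 275% of that in the epithelium pool in WT and 183% in KO. The sums were 145 in WT and 123 in KO stroma, and 52.8 in WT and 66.9 in KO epithelium. Of 34 markers of simple uterine epithelium, 20 had a value in all 4 pools, and the stroma pool held 16.5% of the epithelial level in WT and 36.5% in KO. No marker of lymphocytes, of neutrophils and mast cells, or of stratified squamous epithelium had a value in all 4 pools. A marker without such a value was not listed for every pool, and its transcript need not be absent. The stroma pools were thus richer in stromal than in epithelial transcripts in both genotypes. The KO stroma pool held more epithelial marker transcript than the WT stroma pool. Likewise, the KO epithelium pool held more stromal marker transcript than the WT epithelium pool. A spot can hold several cells, and fewer cells of a type cannot be told apart from less RNA per cell. The 4 tables were normalized separately, and levels in epithelium were carried to the stroma scale through the pools that the tables share.

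**Figure D1:**
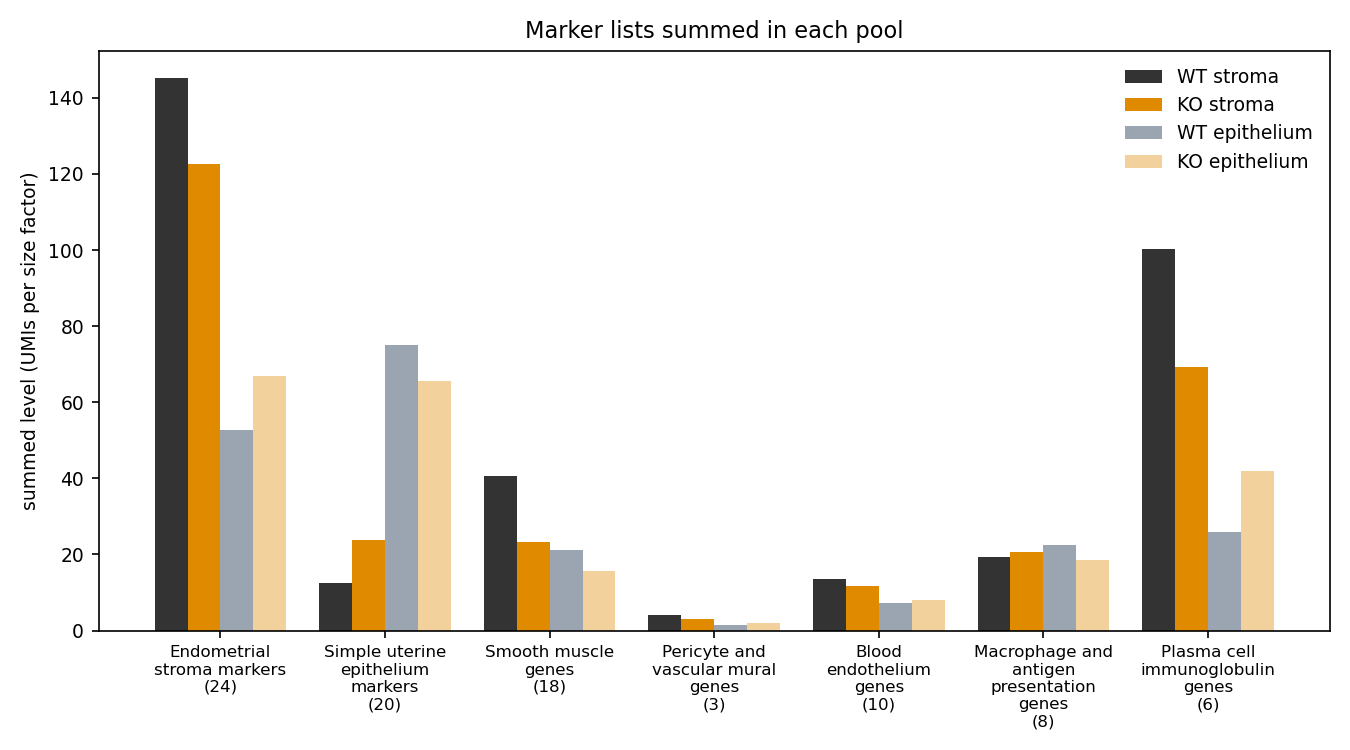
Summed levels (UMIs per size factor, linear axis from 0) of 7 marker lists in each of the 4 pools, with the number of summed genes under each list. In stroma, the summed level of epithelium markers was 12.4 in WT and 23.9 in KO, and that of smooth muscle genes was 40.5 in WT and 23.2 in KO.

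Across the table, 18 genes were called, or 1.51% of 1191. Of these, 9 were higher in KO (0.756% of the table) and 9 were lower (0.756%). The genes that rose were Clca1, Bcat1, Bpifb5, Cxcl14, Lbp, Ccnd1, Dio2, Anpep and Col6a4. Those that fell were the smooth muscle genes Myh11, Pcp4, Acta2, Tagln and Cald1, together with Rgs2, Meis2, Cxcl12 and Fbln1. A level at least 2-fold higher in KO was found for 30 genes (2.52%) and at least 2-fold lower for 19 genes (1.6%). The KO value was the higher for 544 genes, 45.7% of the table, and the median log2 ratio was -0.05. The quartiles of the log2 ratio were -0.30 and 0.19, and the adjusted p in the authors' deposited table was 1 for 948 genes.

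**Figure D2:**
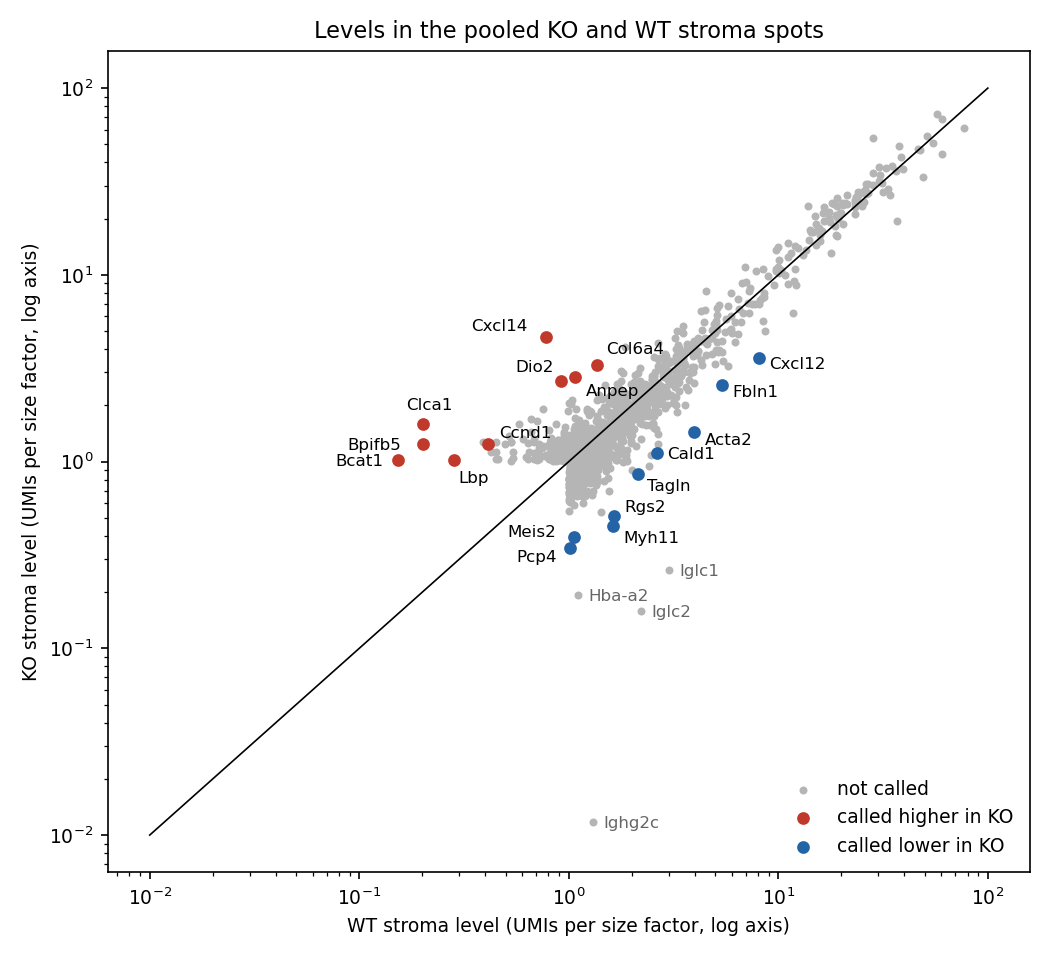
Level of each of the 1191 genes in the WT stroma pool (x axis) and the KO stroma pool (y axis), in UMIs per size factor on log axes, with the line of equal levels. The 9 genes called higher in KO (red) had WT levels from 0.153 to 1.37, and the 9 called lower (blue) had WT levels from 1.02 to 8.05; grey names mark immunoglobulin and hemoglobin genes far from the line that were not called.

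Promoter windows of 5 called genes are shown, some higher and some lower in KO. They include the lowest and the highest CG content of the called genes with a window, Dio2 with 3 CG dinucleotides and Rgs2 with 33. They do not include the extremes within each direction. The windows run from 250 bases before to 50 bases after the RefSeq transcript start (GRCm38.p6), are written 5′ to 3′ on the strand of the gene, and have CG dinucleotides in capitals.
Cxcl14, chr13:56296502-56296801, minus strand, higher in KO: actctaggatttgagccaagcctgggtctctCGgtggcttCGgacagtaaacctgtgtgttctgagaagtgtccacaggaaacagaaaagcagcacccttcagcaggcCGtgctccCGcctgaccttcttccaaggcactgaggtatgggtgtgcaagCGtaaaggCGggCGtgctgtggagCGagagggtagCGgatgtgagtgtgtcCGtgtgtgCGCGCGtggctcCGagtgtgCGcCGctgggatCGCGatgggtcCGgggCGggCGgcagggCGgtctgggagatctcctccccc
Dio2, chr12:90738989-90739288, minus strand, higher in KO: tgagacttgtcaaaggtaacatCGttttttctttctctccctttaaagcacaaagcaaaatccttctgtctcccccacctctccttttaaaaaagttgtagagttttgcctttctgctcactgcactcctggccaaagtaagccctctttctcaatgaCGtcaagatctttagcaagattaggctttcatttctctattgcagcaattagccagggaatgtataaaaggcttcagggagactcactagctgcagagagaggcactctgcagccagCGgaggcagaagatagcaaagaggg
Cxcl12, chr6:117168285-117168584, plus strand, lower in KO: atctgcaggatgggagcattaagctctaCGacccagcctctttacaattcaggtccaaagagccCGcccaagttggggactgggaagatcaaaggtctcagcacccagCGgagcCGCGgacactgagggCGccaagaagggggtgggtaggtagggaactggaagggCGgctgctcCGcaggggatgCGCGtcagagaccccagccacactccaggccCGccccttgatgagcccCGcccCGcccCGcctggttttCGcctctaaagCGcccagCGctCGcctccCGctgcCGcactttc
Rgs2, chr1:144004100-144004399, minus strand, lower in KO: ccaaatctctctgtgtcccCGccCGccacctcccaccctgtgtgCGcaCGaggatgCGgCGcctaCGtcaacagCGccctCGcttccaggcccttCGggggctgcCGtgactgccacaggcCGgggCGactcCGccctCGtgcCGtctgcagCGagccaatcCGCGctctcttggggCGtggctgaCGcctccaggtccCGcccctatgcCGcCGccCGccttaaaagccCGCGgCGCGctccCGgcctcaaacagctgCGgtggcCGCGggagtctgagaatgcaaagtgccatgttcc
Acta2, chr19:34255324-34255623, minus strand, lower in KO: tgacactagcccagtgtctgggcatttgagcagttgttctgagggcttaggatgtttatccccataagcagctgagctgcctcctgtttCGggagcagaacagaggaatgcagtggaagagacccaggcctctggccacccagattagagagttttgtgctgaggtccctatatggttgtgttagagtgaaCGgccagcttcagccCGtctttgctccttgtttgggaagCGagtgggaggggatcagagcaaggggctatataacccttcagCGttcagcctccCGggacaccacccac
RefSeq windows were matched for 13 of the 18 called genes, and Myh11, Tagln, Lbp, Ccnd1 and Clca1 had no entry. The windows of the genes that rose held from 3 to 28 CG dinucleotides (median 11, 7 windows of 6 genes) and those of the genes that fell from 5 to 33 (median 12, 9 windows of 7 genes). Over the 1199 windows of 931 genes of the table the median was 22, and over all 32851 RefSeq windows it was 7. The ranges of the 2 directions overlapped, so CG content of these windows did not separate genes that rose from genes that fell. These counts describe the windows and measure no histone mark.

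Of the genes that rose, 4 (Cxcl14, Dio2, Col6a4 and Clca1) also had a KO level more than 2-fold above WT in epithelium, by 2.34-fold to 2.88-fold. Bpifb5 and Ccnd1 were 1.42-fold and 1.16-fold higher there. Cxcl14 (ENSMUSG00000021508, chr13:56288643-56296551, minus strand) encodes a chemokine found at many epithelial surfaces. Its level in stroma was 0.779 in WT and 4.66 in KO, a 5.98-fold difference (95% counting interval 4.65 to 7.81), and the authors' deposited table gives it an adjusted p of 2.94e-05. In epithelium it was 2.45 in WT and 6.68 in KO, and it was called there as well, at 0.0102 by the adjusted p of the authors' deposited table. The KO level thus exceeded the WT level in both compartments, and the WT stroma pool was the lowest of the 4.

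Dio2 (ENSMUSG00000007682, chr12:90724552-90738438, minus strand) encodes type II iodothyronine deiodinase, which converts thyroxine to the active hormone. Its stroma level was 0.921 in WT and 2.72 in KO, 2.95-fold higher in KO (2.32 to 3.80). Its epithelium level was 0.613 in WT and 1.77 in KO, and the authors' deposited table gave an adjusted p of 0.0158 there. Dio2 and Cxcl14 were the 2 stroma calls also called in epithelium, where 0.12% of 5811 genes were called. Dio2 differed by nearly the same factor in each compartment, and its KO level was higher in stroma than in epithelium.

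Col6a4 (ENSMUSG00000032572, chr9:105989454-106096783, minus strand) encodes a chain of the microfibrillar collagen VI. Its level was 1.37 in WT and 3.30 in KO stroma, 2.41-fold higher in KO (1.97 to 2.97). In epithelium it was 0.892 in WT and 2.09 in KO, which was not called. Clca1 (ENSMUSG00000028255, chr3:145003817-145032776, minus strand), a secreted protein of mucus-producing epithelia, had the largest fold of the called genes, at 0.201 in WT and 1.58 in KO stroma, or 7.89-fold (4.84 to 13.8) from 17 UMIs in WT. In epithelium it stood at 1.43 in WT and 3.47 in KO, not called. Stroma and epithelium pools of KO thus both lay above their WT counterparts for these genes.

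For another 4 of the genes that rose, the WT level was several times higher in epithelium than in stroma and the fold of KO over WT in epithelium lay between 0.692 and 1.16. Bcat1 (ENSMUSG00000030268, chr6:144993835-145076184, minus strand), a cytosolic enzyme that transaminates branched-chain amino acids, rose from 0.153 to 1.02 in stroma, 6.65-fold (3.79 to 12.7), while epithelium held 2.54 in WT and 1.76 in KO. Lbp (ENSMUSG00000016024, chr2:158306493-158332852, plus strand), which binds bacterial lipopolysaccharide, rose from 0.283 to 1.02 in stroma, and epithelium held 2.75 in WT and 2.45 in KO. In these genes the KO stroma pool lay between the WT stroma pool and the epithelium pools. Anpep (ENSMUSG00000039062, chr7:79821803-79861059, minus strand), a cell-surface aminopeptidase, rose from 1.07 to 2.84 beside 5.85 and 5.59 in WT and KO epithelium. Ccnd1 (ENSMUSG00000070348, chr7:144929931-144939925, minus strand), the cyclin D1 that drives entry into S phase, rose from 0.413 to 1.24 beside 1.57 and 1.83. Bpifb5 (ENSMUSG00000038572, chr2:154223742-154240902, plus strand), of the family of bactericidal and permeability-increasing proteins, rose from 0.201 to 1.24 in stroma, with 0.562 in WT and 0.797 in KO epithelium.

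Epithelium markers moved with these genes. In WT, 6 of the 9 genes that rose were called higher in epithelium than in stroma, where 13.1% of 1769 genes were called in that direction. That comparison shares the WT stroma pool with this one, so the count is a description. Of the 20 epithelium markers with a value in all pools, 19 had a higher value in KO than WT stroma. The summed level of the 20 was 12.4 in WT and 23.9 in KO stroma but 74.9 and 65.6 in epithelium. Of the 11 markers listed in the stroma table, 10 had the higher value in KO (median log2 ratio 1.14), Tjp1 being the exception, and none was called. Only 4 of the 11 had levels above 1 in both genotypes (median 1.02). The listing set the direction of the others, Tjp1 included. Wfdc2, a secreted protease inhibitor-like protein, was at 1.85 in WT and 4.09 in KO stroma and at 18.5 and 16.1 in epithelium. Msx1, a homeobox factor of the epithelium and stroma, was at 1.04 and 2.15 in stroma and at 6.65 and 5.15 in epithelium. Epithelial levels of Wfdc2 and Msx1 were not higher in KO, unlike the stroma levels. KO epithelium exceeded KO stroma 2.40-fold for Lbp, 2.19-fold for Clca1, 1.97-fold for Anpep, 1.72-fold for Bcat1, 1.47-fold for Ccnd1 and 1.43-fold for Cxcl14. The part that epithelial transcript in the stroma spots has in these 6 calls was not tested. For Dio2, Col6a4 and Bpifb5 the KO stroma level was above the KO epithelium level.

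**Figure D3:**
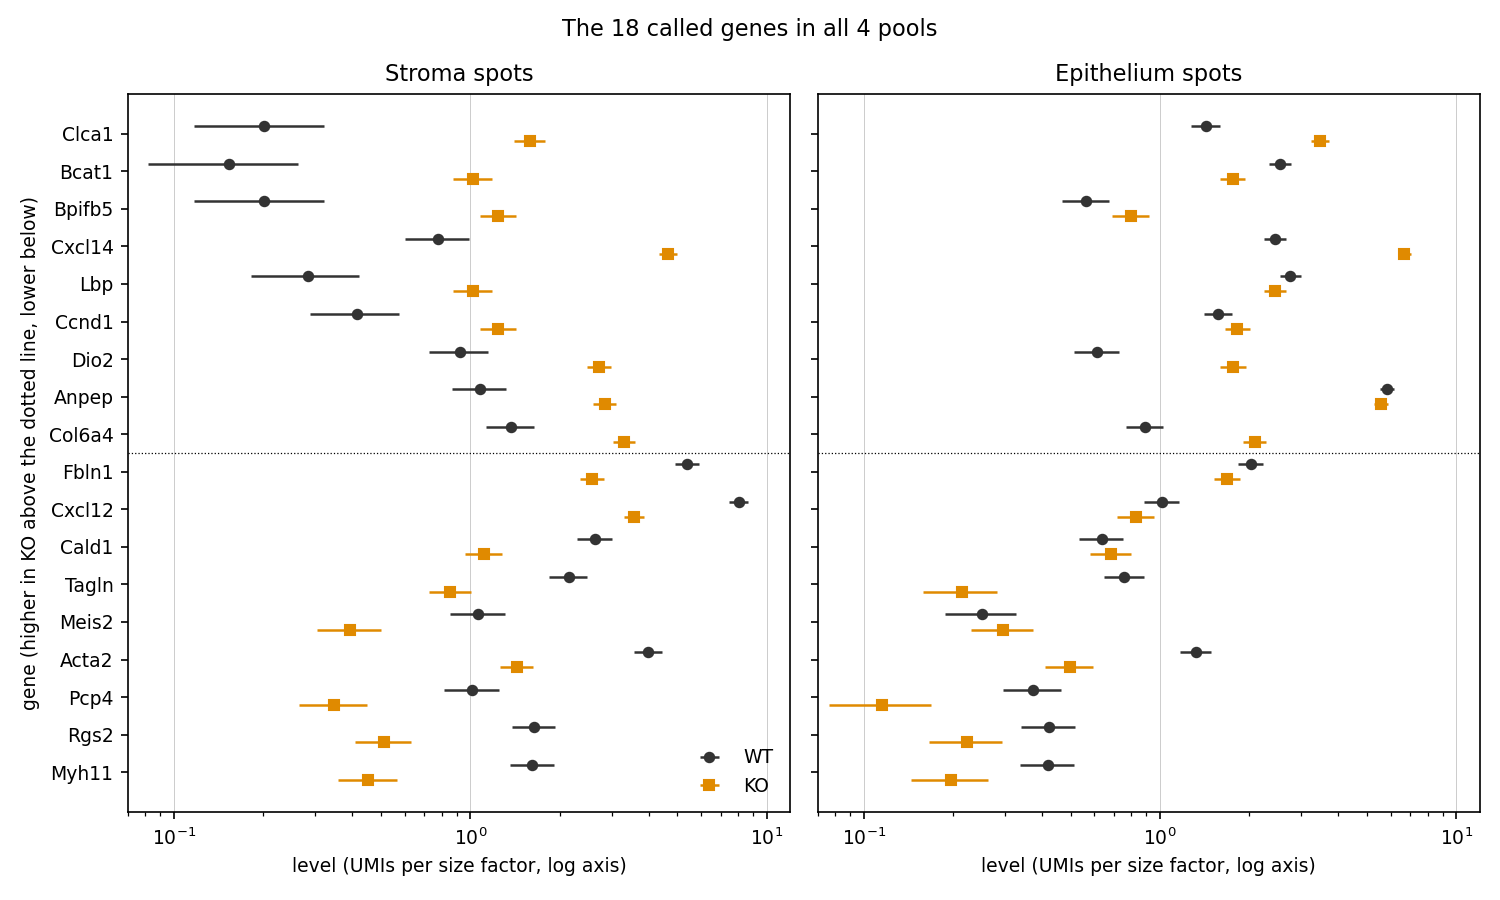
Levels (UMIs per size factor, log axis) of the 18 called genes in stroma (left) and epithelium spots (right), WT as circles and KO as squares, with exact Poisson 95% intervals that cover counting error alone. In stroma every pair is apart; in epithelium the intervals of Cald1 and Meis2 overlap and those of Cxcl14, Dio2 and Col6a4 do not.

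Smooth muscle genes made up 5 of the 9 genes that fell. Myh11 (ENSMUSG00000018830, chr16:14194535-14291372, minus strand), the smooth muscle myosin heavy chain, was at 1.62 in WT and 0.452 in KO stroma, 3.58-fold lower in KO (2.69 to 4.80). Acta2 (ENSMUSG00000035783, chr19:34241090-34255590, minus strand), smooth muscle actin, was at 3.98 and 1.43, 2.78-fold lower (2.35 to 3.29). These are structural proteins of the contractile filaments. Tagln (ENSMUSG00000032085, chr9:45929619-45936058, minus strand), the actin-binding transgelin, fell from 2.15 to 0.857. Pcp4 (ENSMUSG00000090223, chr16:96467606-96525793, plus strand), a calmodulin-binding peptide abundant in myometrium, fell from 1.02 to 0.346. Cald1 (ENSMUSG00000029761, chr6:34598500-34775473, plus strand), caldesmon, which restrains actomyosin, fell from 2.63 to 1.11.

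Most of the other contractile genes had lower KO values too without being called. Of the 18 listed smooth muscle genes, 17 had the lower value in KO, Actn1 being the exception. The median log2 ratio was -0.74 over the 18 and -0.65 over the 9 with levels above 1 in both genotypes. For the others the listing set the direction, Actn1 and the called Myh11, Tagln and Pcp4 included. Myl9, a regulatory myosin light chain, was at 2.67 in WT and 1.24 in KO. Mylk, the kinase that phosphorylates it, was at 3.59 and 2.01, and desmin (Des) was at 3.26 and 2.23. The summed level of the list was 40.5 in WT and 23.2 in KO stroma, and 21.3 and 15.7 in epithelium. In epithelium, Myh11, Acta2, Tagln and Pcp4 also had KO values below WT, at 0.418 and 0.197 for Myh11 and 1.32 and 0.497 for Acta2, and none was called. Cald1 stood at 0.636 in WT and 0.681 in KO epithelium, with a counting interval that includes no difference. How much muscle the sections or spots of each genotype held was not analysed here, and its part in these calls was not tested. The CArG box is the motif of serum response factor. It was searched on both strands in a strict form, with only A or T between CC and GG. Among 19 windows of 16 listed smooth muscle genes, 1 held this form (CCTAATAAGG, Myl9), or 5.26%. The share over all RefSeq windows of that length was 1.63%. The strict form was found in 0 of the 9 windows of called genes that fell and in 1 of the 7 of called genes that rose (Col6a4). Forms with another base in that stretch were not counted, among them CCCTATATGG in the Acta2 window. Myh11 and Tagln had no window, so these counts do not show that promoters of the genes that fell lack the motif.

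The remaining genes that fell were signalling, matrix and transcription factor genes. Cxcl12 (ENSMUSG00000061353, chr6:117168535-117181367, plus strand), a stromal chemokine that attracts CXCR4-bearing cells, was at 8.05 in WT and 3.57 in KO stroma, 2.25-fold lower (2.02 to 2.52), and its adjusted p in the authors' deposited table was 0.0125. Its epithelium level was 1.02 in WT and 0.831 in KO. Cxcl12 and Cxcl14 thus differed in opposite directions between the same stroma pools. Rgs2 (ENSMUSG00000026360, chr1:143999338-144004161, minus strand), which switches off Gq-coupled signalling, was at 1.64 and 0.510, 3.21-fold lower (2.44 to 4.25). Of 3 listed pericyte and vascular mural genes, Rgs2 fell and the other 2 had higher values that were not called. Fbln1 (ENSMUSG00000006369, chr15:85205949-85286535, plus strand), the matrix glycoprotein fibulin 1, was at 5.39 and 2.58, 2.09-fold lower (1.83 to 2.39). Meis2 (ENSMUSG00000027210, chr2:115863064-116065839, minus strand), a homeodomain partner of HOX proteins, was at 1.06 and 0.393, 2.70-fold lower (1.95 to 3.76). All 9 genes that fell were called higher in stroma than in epithelium in the WT comparison, where 15.7% of 1769 genes were called in that direction and the WT stroma pool is the same.

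Of the 23 listed endometrial stroma markers, 2 fell (Cxcl12 and Fbln1), 11 had the higher and 12 the lower value in KO, and the median log2 ratio was -0.13. Dcn, the proteoglycan decorin, was at 60.6 in WT and 44.5 in KO. The list thus did not differ in 1 direction. The sum over 24 markers was 145 in WT and 123 in KO.

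Collagen genes had mostly higher values in KO. Of 11 listed, Col6a4 rose, 9 others had a higher KO value, Col16a1 had a lower one, and the median log2 ratio was 0.52, against -0.05 over the table. Over the 9 genes with levels above 1 in both genotypes the median was 0.53. For the others, Col16a1 included, the listing set the direction. Col1a1, which encodes a chain of type I collagen, was at 2.66 in WT and 4.31 in KO (1.62-fold, 1.40 to 1.89). Col3a1, the type III chain, was at 4.47 and 6.48, and Col6a2 at 1.78 and 3.05. None of these was called, the lowest adjusted p of the 3 in the authors' deposited table being 0.581. Among 8 basement membrane genes, which share 4 collagens with that list, 7 had the higher value in KO (median 0.32), with Nid1 at 1.49 in WT and 1.90 in KO. The median was 0.35 over the 6 with levels above 1 in both genotypes. Proteoglycans were divided: 6 of 8 had the higher value in KO (median 0.37), while Dcn and Lum had lower ones. Only 5 of the 8 had levels above 1 in both genotypes (median 0.32), and the listing set the direction of the others. Among 7 elastic fibre and fibulin genes, Fbln1 fell and Mfap4, a microfibril-associated protein, was at 1.49 and 2.56.

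Hormone receptors of the stroma were not called. Esr1, the estrogen receptor, was at 5.04 in WT and 3.94 in KO, and Pgr, the progesterone receptor, at 1.06 and 0.974 with a counting interval that includes equal levels. Nr2f2, the orphan receptor COUP-TFII that carries progesterone signals in stroma, was at 5.44 and 3.47. Of 8 steroid receptors and coregulators, 7 had the lower value in KO (median -0.36), the chaperone Fkbp4 being the exception. Only 5 of the 8 had levels above 1 in both genotypes (median -0.35), and the listing set the direction of the others, Pgr included. Of 5 listed estrogen-responsive genes, Clca1 and Ccnd1 rose and Igf1, Pgr and Vegfa had lower values that were not called. None of the 5 had a level above 1 in both genotypes, so the listing set the direction of each.

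The progesterone and decidual group had 7 listed genes, of which Dio2 rose, Hoxa11 and Hand2 had higher values and the other 4 lower ones (median -0.31). Dio2, Hoxa11 and Hand2 were listed through KO alone, which set their direction. The median was -0.48 over the 4 with levels above 1 in both genotypes. Ptch1, the Hedgehog receptor and a readout of that pathway, was at 1.89 in WT and 1.00 in KO (adjusted p 0.276 in the authors' deposited table). Gli1, the other listed Hedgehog gene, also had the lower value in KO. Homeobox genes were split. Meis2 fell, Hoxa10 (2.93 and 2.35) and Hoxd9 (1.46 and 1.24) had lower KO values, and Hoxa11 and Msx1 had higher ones. The direction of Meis2, listed through WT alone, was set by the listing, as was that of Hoxa11. Of the subunits of Polycomb repressive complex 2, only the histone-binding Rbbp4 and Rbbp7 were listed, and neither was called.

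In the IGF system, which relays growth signals between stroma and epithelium, 6 of 8 genes had the higher value in KO (median 0.17) and none was called. Igfbp4, a binding protein that sequesters IGF, was at 6.94 in WT and 11.0 in KO, and Igfbp5 at 4.29 and 6.41. Of 4 cell-cycle genes, Ccnd1 rose, and Ccnd3 was at 0.543 and 1.04. Both were listed through KO alone, which set their direction. Among 7 genes of the TGF-beta and BMP pathways, the BMP targets Id1, Id2 and Id3 had higher KO values, at 2.14 and 3.00 for Id3. The receptor gene Bmpr1a had a lower one. Id1 was listed through KO alone and Bmpr1a through WT alone, so the listing set their directions. None of the 7 was called. All 6 lipid and cholesterol genes had higher KO values (median 0.29), with the desaturase Scd2 at 2.92 and 3.68, and none was called. Of these, 4 had levels above 1 in both genotypes (median 0.25), and the listing set the direction of the others.

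Hemoglobin and immunoglobulin transcripts had lower values in the KO pool without being called. All 3 hemoglobin genes had lower KO values (median log2 ratio -1.42), with Hbb-bs at 2.41 in WT and 0.951 in KO. Each of the 3 was listed through WT alone, so the listing set this direction. Of 8 plasma cell genes, 7 had lower values, and the median was -0.45 over the 4 with levels above 1 in both genotypes. Iglc1, a lambda light chain, was at 3.00 in WT (254 UMIs) and 0.264 in KO (45 UMIs), an 11.4-fold difference (8.25 to 16.0) whose adjusted p in the authors' deposited table was 0.327. Igha, the IgA heavy chain, was at 48.8 and 33.6. The largest ratio of the table was that of Ighg2c, an IgG heavy chain chosen after its value was seen, with 111 UMIs in WT and 2 in KO, a ratio of 112 (30.2 to 933). Iglc1 and Ighg2c were listed through WT alone, which set their direction in stroma. Iglc1 was lower in KO epithelium too, at 0.334 in WT and 0.0257 in KO. Immunoglobulin and hemoglobin genes have near-identical copies, so their reads may be split between copies. Whether single animals carry these differences was not tested. Of 7 macrophage and antigen presentation genes, 5 had the higher value in KO (median 0.18), with Cd74 at 3.25 and 3.68. The chemokine Ccl21a of lymphatic endothelium was at 0.449 and 1.27 (adjusted p 0.878 in the authors' deposited table).

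No ribosomal, respiratory chain, mitochondrial, nuclear noncoding or splicing gene of the lists was called. Of 81 ribosomal protein genes, 60 had the higher value in KO (median 0.12), and of 60 nuclear respiratory chain genes, 23 did (median -0.08). Of 10 mitochondrially encoded transcripts, 8 had the higher value (median 0.32), and mt-Co1 was at 28.4 in WT and 54.0 in KO. All 4 nuclear long noncoding RNAs had the lower value (median -0.49), with Malat1 at 36.8 and 19.5. Splicing and RNA-binding genes were lower for 24 of 31 (median -0.17). Mitochondrial transcripts thus mostly had higher and nuclear RNAs lower values in KO, and the part of RNA quality or of nuclear content of the spots in other results was not tested. All 4 circadian clock genes had lower values, with Nr1d1 at 1.56 and 0.692. So did all 5 immediate-early genes, of which Rgs2 fell and Jun was at 1.32 and 0.945. Nr1d1, Rgs2 and Jun were listed through WT alone, which set their direction. Levels were above 1 in both genotypes for 3 clock genes (median -0.49) and 3 immediate-early genes (median -0.20). The hour at which the uteri were taken was not analysed here.

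**Figure D4:**
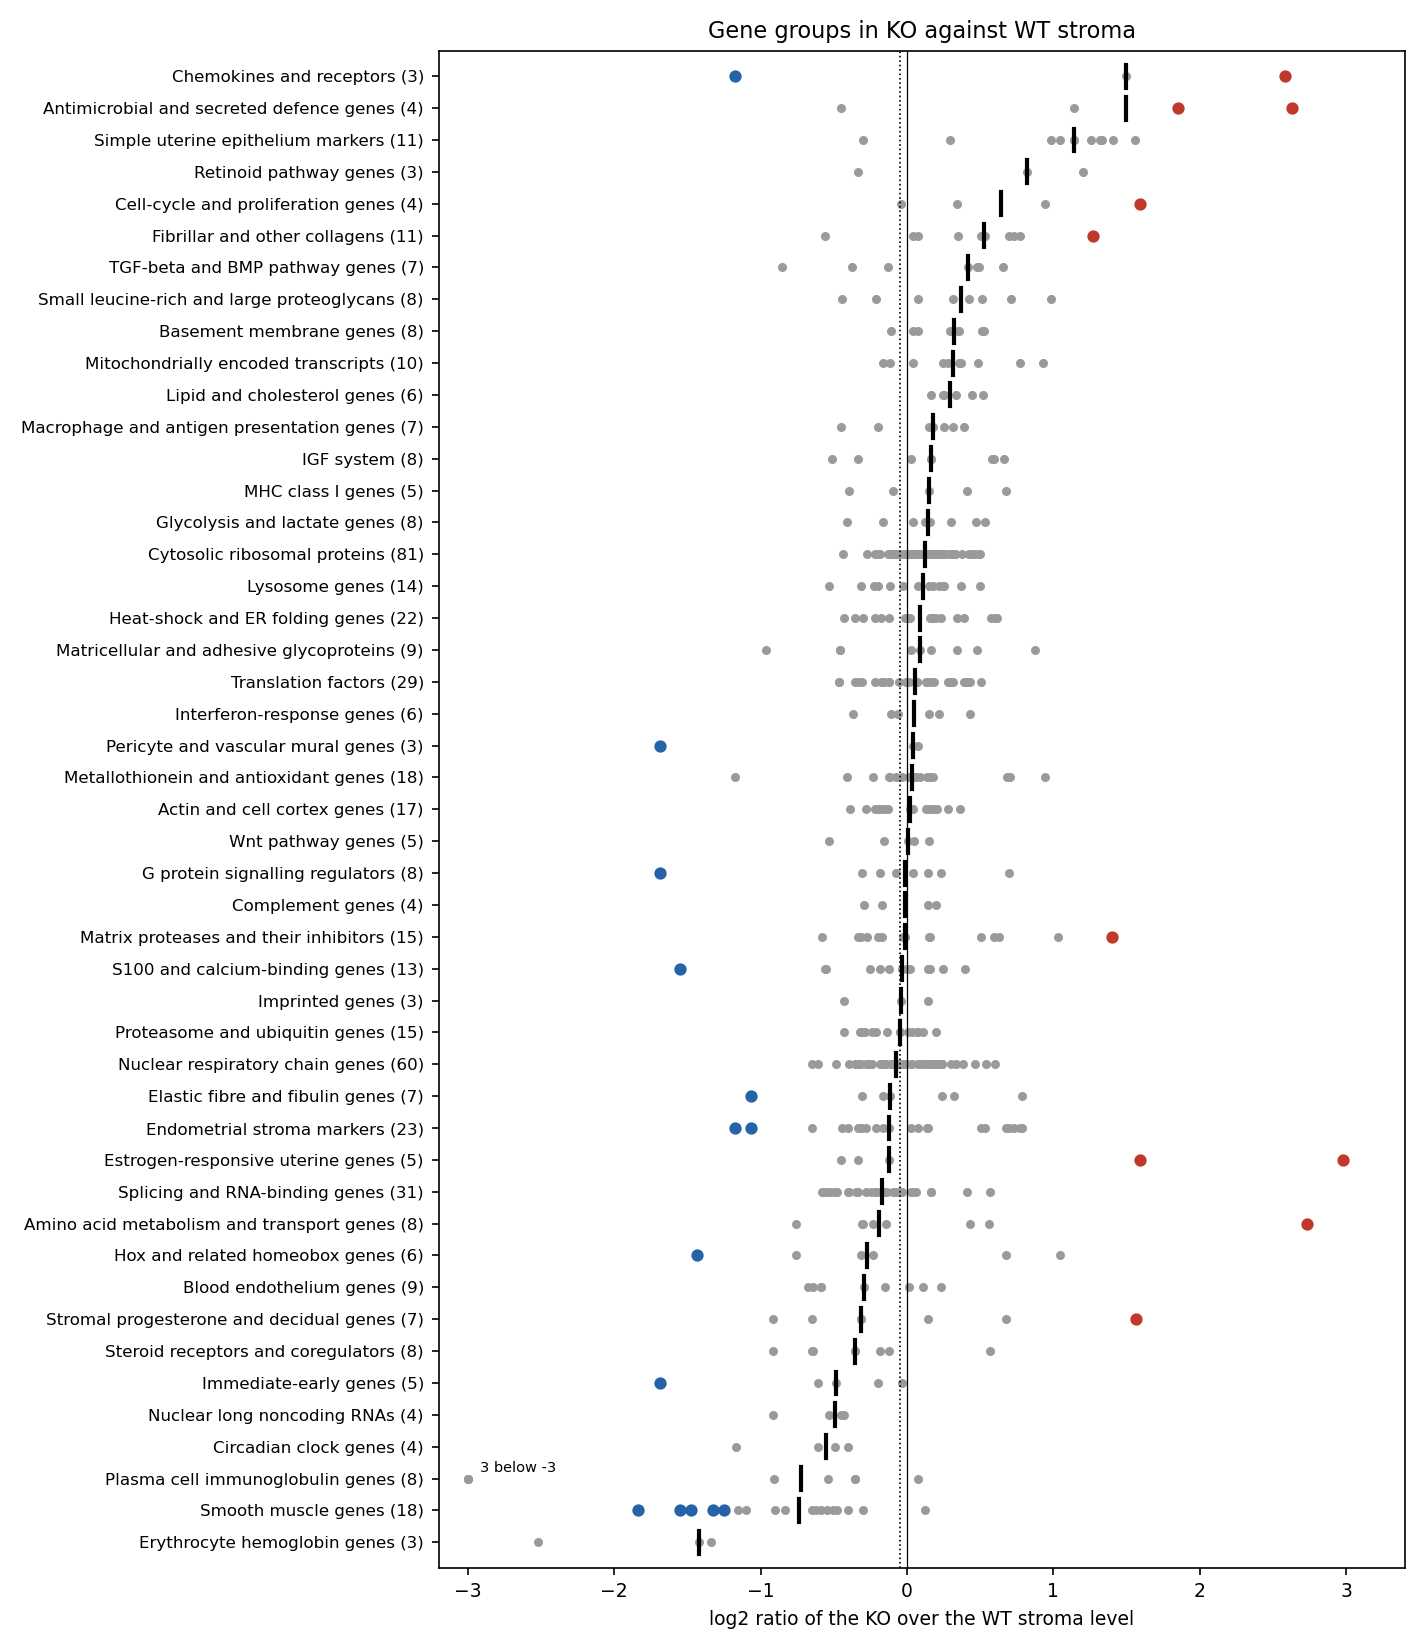
Log2 ratio of the KO over the WT stroma level for each listed gene of the groups with at least 3 listed genes (number in brackets), with the group median as a black bar and the median of all 1191 genes as a dotted line. Called genes are red (higher in KO) or blue (lower), and 3 plasma cell genes below -3 are drawn at -3. Smooth muscle genes lie almost all left of 0 with a median of -0.74, and collagens mostly right of 0 with a median of 0.52. For genes with a level above 1 in 1 genotype alone, the listing set the side of 0.

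The threshold of 0.05 left muscle genes on both sides. Just inside it the authors' deposited table had Anpep at an adjusted p of 0.0380 and Ccnd1 and Pcp4 at 0.0395. Just outside were the muscle genes Tpm2 (tropomyosin) at 0.0545 and Myl9 at 0.0635, the clock repressor Nr1d1 at 0.0646, and the GTPase gene Arl4c and the plasma glutathione peroxidase gene Gpx3 at 0.0729, in the authors' deposited table. Tpm2 was at 1.99 in WT and 0.898 in KO. Arl4c was at 0.449 and 1.12, and Gpx3 at 2.47 and 1.09. Car2, a carbonic anhydrase, was at 0.390 and 1.28. Spon2, a secreted matrix protein, was at 0.708 in WT and 1.65 in KO stroma, and at 0.395 and 0.951 in epithelium, higher in KO in each compartment like Dio2 and Col6a4. Tpm2, Arl4c, Car2 and Spon2 were picked after their values were seen, as were Tjp1, Actn1, Col16a1, Bmpr1a, Id1, Hoxa11, Hand2, Gli1, Fkbp4, Rbbp4 and Rbbp7.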

How the data were processed

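Visium libraries of 8 uteri were pooled by genotype and compartment before deposit. The deposited averages are read here as UMIs scaled by size factors, from their values, with log2 fold changes and adjusted p-values beside them, per the file headers. Per the submitters' processing notes, reads were placed on GRCm38. How spots were named, the aligner and the test were not given in the sources used here. The size factor sum of each pool was solved by least squares from the averages, after which 100% of averages were within 0.01 of a whole UMI sum. Folds are ratios of averages with exact Clopper-Pearson 95% intervals of these sums, and intervals of levels are exact Poisson. Symbols were located in GENCODE M21 (1190 of 1191). Python 3.11.15, numpy 2.4.6, scipy 1.17.1, pandas 2.3.3 and matplotlib 3.10.9 were used, and the recovery was tested on simulated data. Named were all called genes; up to 10 uncalled genes per direction with the largest ratios, levels above 1 and an interval without 1; called members and up to 4 highest members of each list with 3 or more; the 10 highest genes; and Pgr, Esr1 and Ezh2, the last not analysed here. The members and lists were chosen with earlier results of these data known. The tables hold no replicate values, so no test between animals was made. Alternatives were a threshold of 0.01, a 2-fold minimum, filters on low levels, other scalings and the authors' log2 fold change. Some genes are not reported here.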

Additional observations from a re-analysis of the deposited data

How the results depend on the processing

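No paired analysis was possible because each genotype has 1 merged value per gene, and no animal could be left out for that reason. Counts past a threshold depended on the low genes, since fewer genes are counted under a filter. Without the lowest 25% of genes by mean level, 4 genes were called higher and 5 lower, and 10 were at least 2-fold higher and 12 lower. With levels above 1 in both genotypes, 2 were called higher and 4 lower, and 5 were at least 2-fold higher and 6 lower. With 0.01 as the limit on the adjusted p of the authors' deposited table, 6 genes were called higher and 4 lower. A minimum of 2-fold kept 9 and 9. Other scalings moved all log2 ratios by 0.05 (centring on the median gene) or -0.03 (scaling on the total). Group medians that changed sign were near 0 or rest on few genes. With levels above 1 in both genotypes they were blood endothelium (0.015), G protein signalling (0.044, also without the lowest 25%) and chemokines (-1.17, the single gene Cxcl12). Under centring they were complement (0.036), matrix proteases (0.035), G protein signalling (0.037), imprinted genes (0.0099) and S100 genes (0.018). Under scaling on the total they were Wnt (-0.022) and actin cortex genes (-0.0087). Depth limits genes with few UMIs, such as Bcat1 with 13 in WT stroma, and the spread between animals is unknown.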

Other observations

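Groups not described above held further uncalled genes. Aldh1a1, which makes retinoic acid, was at 0.449 in WT and 1.03 in KO stroma. Values of 2 elongation factors differed in direction, with Eef1a1 at 77.1 in WT and 61.1 in KO and Eef2 at 11.2 and 14.8. Of 22 heat-shock and folding genes, 15 had the higher value in KO (median log2 ratio 0.09). Of 5 MHC class I genes, 3 did (median 0.15), with H2-K1 at 5.21 and 6.92 and B2m at 7.46 and 6.98. Of 18 metallothionein and antioxidant genes, 11 had the higher value (median 0.04).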
